A study of Mus musculus with 2 samples.

Results

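The genes described here encode the cornified envelope, the crosslinked protein shell of squamous cells, together with the enzymes, surface proteins and transcription factor that go with its formation. They were the protein-coding rows of the count table whose symbol starts with Sprr or Lce, plus 16 named genes (Ivl, Lor, Flg, Flg2, Hrnr, Rptn, Tchh, Krtdap, Sbsn, Cnfn, Tgm1, Tgm3, Evpl, Ppl, Cdsn and Trp63), which gave 52 of 55416 genes, among 21928 protein-coding ones. The set was drawn up after the counts of both tumors were known, because most of these genes had been seen to be high in 1 library. Their difference between the libraries is therefore given as a description, without a test.

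Squamous epithelia, such as epidermis and the lining of mouth and esophagus, renew from a basal layer that depends on the transcription factor p63 (Trp63). As cells move upwards they make small proline-rich (SPRR), late cornified envelope (LCE), loricrin and involucrin proteins, which transglutaminases crosslink under the plasma membrane onto a scaffold that includes envoplakin and periplakin. Most of the structural genes stand side by side in the epidermal differentiation complex.

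Bulk RNA-seq had been carried out on 2 rhabdoid tumors (RT) from Dppa3-cre::Smarcb1 Fl/+ mice, in which an IRES-Cre inserted at Dppa3, a gene active in primordial germ cells, acts on 1 floxed allele of Smarcb1 while the other allele is not floxed. Both tumors thus arose with the same alleles on a C57BL/6 background, and the ages of the mice were not given in the sources used here. One tumor was labelled intracranial with the trigeminal nerve as its site, the other extracranial with a facial, maxillar site, and both were classified as MYC. Each library came from bulk tumor tissue and there was no normal tissue or replicate among the samples, so a difference between the locations cannot be told apart from one between these 2 tumors or their dissections.

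The library labelled intracranial held 34545846 counts and the one labelled extracranial 26915696, so that 3 counts, the floor used here, stand for 0.0863 and 0.112 CPM (counts scaled to the usual common depth). Smarcb1 itself had 365 and 530 counts, or 10.5 and 19.8 CPM. Tnn, C1qtnf3, Prelp, Tlx2 and Postn mark extracranial RT cells in the single-cell part of the study. All 5 were higher in the library labelled intracranial, by 1.85- to 30.2-fold, the direction opposite to the labels. The lowest, Postn, was short of 4-fold. Those markers came from comparing tumor cells alone, in other mouse models, whereas bulk tissue was read here. Markers of intracranial RT cells were not set beside them, so whether the labels are right was not tested. The libraries are therefore called by their labels throughout. No molecular identifiers are described for these reads, so 2 of them can stem from 1 molecule, and every interval covers counting error only.

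Most of the set was abundant in one tumor and near or below the floor in the other. Summed over the 52 genes, the library labelled intracranial held 221622 counts (6378 CPM, exact Poisson 95% interval 6352 to 6405) and the library labelled extracranial 427 counts (15.96 CPM, 14.5 to 17.5). In bulk tissue, fewer cells of a type and less RNA per cell cannot be told apart. Of the 52 genes, 49 were above 3 counts in the tumor labelled intracranial and 8 in the tumor labelled extracranial, where 41 had no count and 3 had 1 to 3 counts. A gene was called where the exact binomial 95% interval of the ratio of its scaled counts lay wholly beyond 4-fold. Of the 48 genes with at least 10 counts, 46 were called higher in the tumor labelled intracranial, beside 5.41% of all 21977 genes tested. In the opposite direction 0 of the 48 were called, against 1.78% of all genes. The median log2 ratio of the set was 7.09, with counts of 3 or fewer set to 3, beside 0.04 for all genes tested. Since the set was picked for this difference, these counts describe it and support nothing further.

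**Figure D1:**
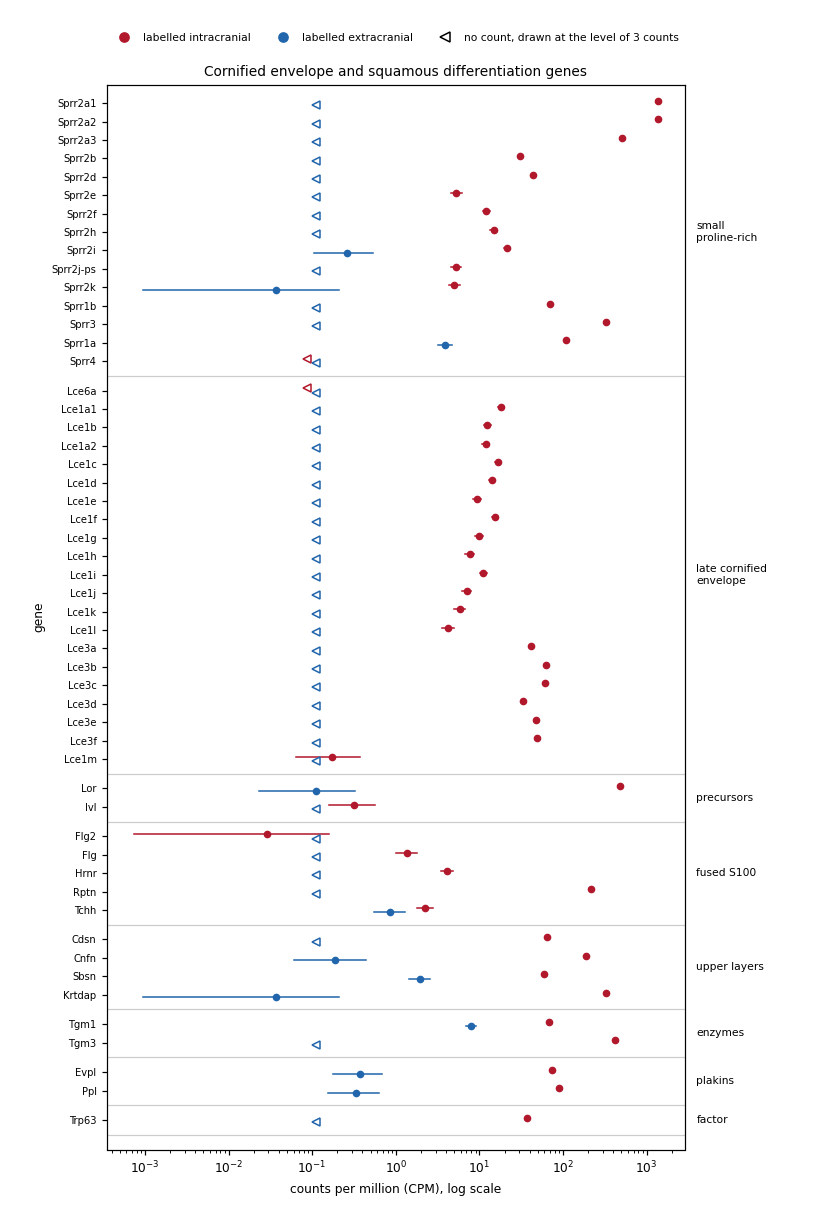
Level of each gene in CPM (log scale) in the library labelled intracranial (red) and the library labelled extracranial (blue), grouped by role. Points are 1 library each, lines are exact 95% counting intervals, and open triangles mark genes without a count, drawn at the level of 3 counts. The red points of the Sprr2a genes, Lor and Tgm3 lie furthest to the right, and 41 genes have a blue triangle.

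**Figure D2:**
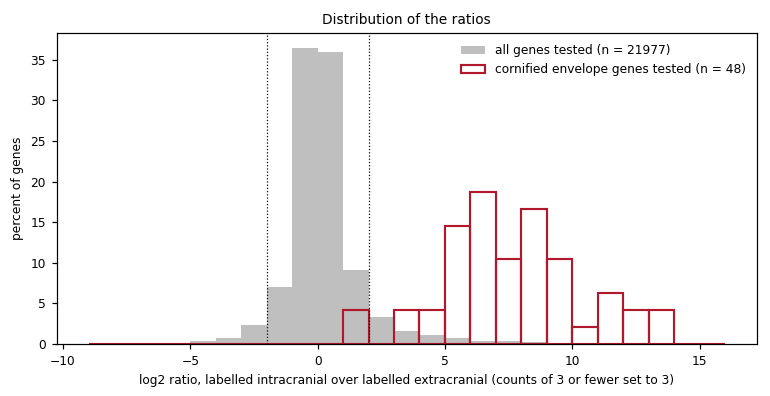
Percent of genes by log2 ratio of the library labelled intracranial over the library labelled extracranial, in bins of 1, for all 21977 genes tested (grey) and the 48 genes of the set that were tested (red outline). Counts of 3 or fewer were set to 3 and the dotted lines mark 4-fold. The set lies to the right of the grey peak, with Ivl and Tchh in the bin from 1 to 2.

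The plot of the ratios shows how far the set lay from the bulk of the table. Of the 46 called genes, 36 had no count at all in the tumor labelled extracranial, so their folds are lower bounds taken against 3 counts there. Within the tumor labelled intracranial the set also spanned a wide range. Per kilobase of exon, its median gene stood at percentile 90.8 among protein-coding genes of that library, and 19 of 52 genes were in the top 5% there. In the other library the median gene had no count. Its percentile of 11.9 there is the rank shared by all protein-coding genes without a count.

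The crosslinking enzymes differed from each other in how sharply they separated the tumors. Tgm3, the transglutaminase of the upper layers and of hair, had 14506 counts in the tumor labelled intracranial and 0 in the tumor labelled extracranial, which puts it at least 3724-fold higher. Tgm1, the membrane-bound transglutaminase of keratinocytes, had 2398 counts and 212 counts. It was detected in both tumors, and its ratio of 8.71 (7.57 to 10.1) was the smallest of the 46 called genes. Per kilobase, Tgm3 exceeded Tgm1 4.63-fold in the tumor labelled intracranial (101 against 21.8 CPM per kilobase), while in the other tumor Tgm1 was at 2.51 CPM per kilobase and Tgm3 was not detected. Of the 7 other transglutaminase family genes, 2 of 6 tested were called higher in the tumor labelled intracranial and 0 in the other. Over all genes tested, these shares were 5.41% and 1.78%. F13a1, the A subunit of clotting factor XIII, had 10160 and 11273 counts, and Tgm2, the tissue transglutaminase, 1420 and 1293.

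The small proline-rich proteins, substrates that bridge other envelope proteins, made up 61.3% of the counts of the set in the tumor labelled intracranial. Their 15 genes summed to 135802 counts there and 112 in the tumor labelled extracranial, and 14 of 14 tested were called. The 3 Sprr2a genes alone gave 51.2% of the set. Sprr2a1 had 47748 counts, Sprr2a2 47894 and Sprr2a3 17846 in the tumor labelled intracranial, and all 3 had 0 in the tumor labelled extracranial. Together they were at least 29133-fold higher. How reads were split between these 3 genes is uncertain, and their coding sequences, shown because they set that limit, make this visible. They are printed 5′ to 3′ from release M21 of GENCODE, with capitals where a base differs from Sprr2a1 or is added, and Sprr2b is added as the nearest other copy.
Sprr2a1: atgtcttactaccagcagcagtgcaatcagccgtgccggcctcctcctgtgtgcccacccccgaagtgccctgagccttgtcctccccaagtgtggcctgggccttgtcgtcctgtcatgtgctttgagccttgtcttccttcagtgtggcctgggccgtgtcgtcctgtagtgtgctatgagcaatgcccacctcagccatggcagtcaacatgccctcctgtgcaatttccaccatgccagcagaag
Sprr2a2: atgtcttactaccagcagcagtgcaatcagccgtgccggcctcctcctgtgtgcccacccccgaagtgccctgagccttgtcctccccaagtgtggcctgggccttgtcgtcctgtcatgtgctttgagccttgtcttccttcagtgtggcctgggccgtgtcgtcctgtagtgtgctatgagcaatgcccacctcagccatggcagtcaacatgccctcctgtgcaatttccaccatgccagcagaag
Sprr2a3: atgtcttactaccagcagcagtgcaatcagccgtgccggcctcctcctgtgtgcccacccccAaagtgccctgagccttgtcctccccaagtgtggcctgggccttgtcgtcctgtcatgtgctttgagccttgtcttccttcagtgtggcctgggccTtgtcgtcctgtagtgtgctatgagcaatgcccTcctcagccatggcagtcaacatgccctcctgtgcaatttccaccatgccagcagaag
Sprr2b: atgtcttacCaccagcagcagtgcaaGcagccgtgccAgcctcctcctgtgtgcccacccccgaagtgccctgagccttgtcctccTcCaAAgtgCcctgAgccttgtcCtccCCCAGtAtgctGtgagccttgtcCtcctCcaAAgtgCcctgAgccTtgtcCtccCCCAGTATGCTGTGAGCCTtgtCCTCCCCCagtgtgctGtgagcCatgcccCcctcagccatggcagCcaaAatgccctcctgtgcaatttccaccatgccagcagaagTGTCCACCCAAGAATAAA

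Sprr2a1 and Sprr2a2 were identical over 249 coding bases, and Sprr2a3 differed at 3 of them. Sprr2b, which is longer, matched Sprr2a1 at 87.95% of the bases compared. Over whole transcripts, 94.5% of the stretches of 72 bases (the read length) in Sprr2a1, 94.9% in Sprr2a2 and 49.0% in Sprr2a3 also occurred in another gene, mainly in one another. In the annotation used here, the exons of Sprr2a1 and Sprr2a2 overlap on the same strand as well. Their sum of 113488 counts does not depend on how reads were split between them. It would still be too low if reads with several alignments were left out, and too high if they were counted once per gene. Which applies is not given in the sources used here and was not tested. Leaving out such reads would lower Sprr2a1 and Sprr2a2 most, because they share the most stretches. These 2 had 47748 and 47894 counts, and Sprr2a3, with fewer shared, had 17846. The shares and folds that rest on this sum carry the same limit. With all 11 Sprr2 genes added up to 1 feature, 36 of 38 features tested were called.

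The other Sprr2 genes share less sequence and were far lower. Sprr2d had 1520 counts, Sprr2b 1074, Sprr2i 741, Sprr2h 514, Sprr2f 421, Sprr2e 185, Sprr2j-ps 183 and Sprr2k 175 in the tumor labelled intracranial. Only Sprr2i, with 7 counts, and Sprr2k, with 1, were seen in the tumor labelled extracranial. All 8 were called. Sprr2j-ps is protein-coding in the annotation used here, although its name marks it as a pseudogene. Per kilobase, their median of 19.8 CPM compares with 458 for the Sprr2a genes, but the exon models of the latter are 2883 to 3003 bases long and those of the others 609 to 784, which lowers the Sprr2a levels on this scale.

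Sprr1a and Sprr1b, the SPRR1 pair, parted in the tumor labelled extracranial. Sprr1a had 3746 counts in the tumor labelled intracranial and 104 in the other, a ratio of 27.7 (22.8 to 34.0). Sprr1b had 2420 and 0 counts, at least 621-fold. Sprr1a, which is also known as a gene that injured neurons switch on, was per kilobase the highest gene of the set in the tumor labelled extracranial, at 4.82 CPM per kilobase. Sprr3, typical of the esophagus and oral lining, had 11335 and 0 counts, at least 2909.8-fold, and ranked 5 in the set per kilobase. Sprr4 was not detected in either tumor.

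Proline codons made up a median of 31.3% of the coding sequence over the 15 Sprr genes, from 9.17% in Sprr2j-ps to 42.6%, and cysteine codons a median of 15.7%. Lce3 genes each held 16.3% cysteine, and Lce1 genes a median of 21.5% cysteine, 20.3% glycine and 24.5% serine.

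The late cornified envelope proteins, small proteins added near the end of cornification, were not detected in the tumor labelled extracranial. All 21 genes had 0 counts there, against a sum of 15221 in the tumor labelled intracranial (438 CPM, 431 to 445), and 19 of 19 tested were called. The subfamilies did not overlap. The 6 Lce3 genes ranged from 1168 counts in Lce3d to 2158 in Lce3b, and the 13 Lce1 genes other than Lce1m from 147 in Lce1l to 625 in Lce1a1. Per kilobase, the median of the Lce3 genes (79.2 CPM) was 5.17 times that of the Lce1 genes (15.3 CPM). Lce3 genes are best known from wounded or inflamed epidermis and Lce1 genes from normal epidermis. Lce1m had 6 counts in the tumor labelled intracranial and Lce6a none. Among the Lce3 genes, up to 45.9% of stretches of 72 bases (Lce3f) occurred in another gene, and among the Lce1 genes up to 13.9% (Lce1e). Single Lce3 values are therefore uncertain, and their sum of 10218 also depends on how reads with several alignments were counted.

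Loricrin and involucrin, the classical late and early envelope precursors, stood at opposite ends. Lor had 16703 counts in the tumor labelled intracranial and 3 in the other, a ratio of 4288 (1467 to 20794). Ivl had 11 counts and 0, which is at least 2.82-fold and was not called. Per kilobase, Lor exceeded Ivl 1641-fold within the tumor labelled intracranial. The 2 coding sequences differ in make-up, with 55.4% glycine codons in Lor and 26.7% glutamine codons in Ivl.

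The fused S100 proteins, large repeat proteins that include filaggrin, were mostly low, with 1 exception. Rptn (repetin) had 7536 and 0 counts, at least 1935-fold. Hrnr (hornerin) had 142 and 0 counts, Flg (filaggrin) 47 and 0, and Flg2 1 and 0. Per kilobase, Rptn exceeded Hrnr 143-fold and Flg 728-fold in the tumor labelled intracranial. Repeats limit this comparison, since Flg held 9443 distinct stretches of 72 bases in 18829 exon bases and Hrnr 4740 in 11187. Rptn held 4075 in 4146. How reads that align to several places within 1 gene were counted is not given, so the levels of Flg and Hrnr are uncertain. Trichohyalin (Tchh), a protein of hair follicles and of the filiform papillae of the tongue, had 78 and 23 counts. It was seen in both tumors at a ratio of 2.61 (1.62 to 4.36) and was not called. Of 14 hair follicle and hair shaft genes, 6 had no count in the tumor labelled intracranial, 11 had none in the tumor labelled extracranial, and 0 of 2 tested were called.

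Of the proteins secreted by, or on the surface of, the upper layers, Krtdap and Cnfn were among the highest of the set per kilobase. Cdsn and Sbsn ranked 22 and 31 of 52. Krtdap, a secreted protein of stratifying keratinocytes, had 11287 counts in the tumor labelled intracranial and 1 in the other (ratio 8692, 1559.8 to 343363), and was first in the set per kilobase. Its log2 ratio was 11.50 with the single count set to the floor of 3, which is 3 times less than that ratio. Cnfn (cornifelin) had 6577 and 5 counts, a ratio of 1013 (434 to 3121). Cdsn (corneodesmosin), an adhesion protein of the corneodesmosome, had 2248 and 0 counts. Sbsn (suprabasin) had 2082 and 52 counts and was thus seen in both tumors, at a ratio of 30.8 (23.4 to 41.4).

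**Figure D3:**
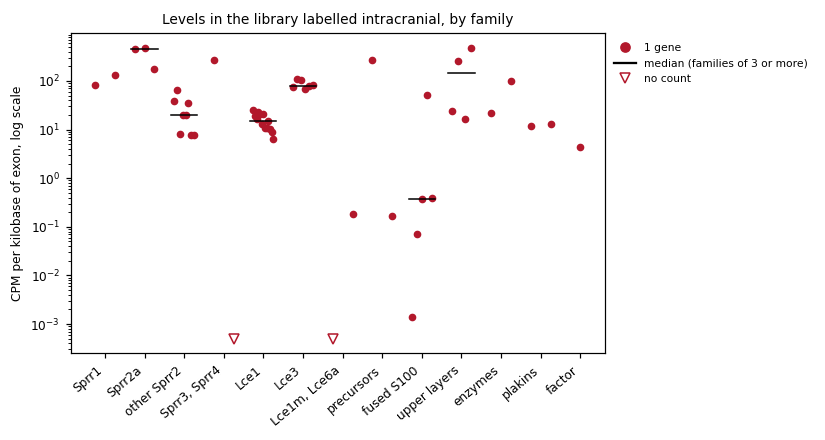
Level per kilobase of exon (CPM per kilobase, log scale) of each gene in the library labelled intracranial, by family. Points are single genes, black lines are medians of families of 3 or more genes, and open triangles mark genes without a count. All Lce3 genes lie above all Lce1 genes, and Lor (270.2) and Ivl (0.165) lie far apart.

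The plakins, which tether the envelope to desmosomes and keratin filaments, were close to each other in both tumors. Ppl (periplakin) had 3095 and 9 counts and Evpl (envoplakin) 2604 and 10, which gave ratios of 265 (139 to 579.7) and 201 (109 to 419). Trp63 had 1284 and 0 counts, at least 329.6-fold. It was the lowest per kilobase of the 9 genes outside the epidermal differentiation complex (4.40 CPM per kilobase).

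What remained in the tumor labelled extracranial came from few genes. Tgm1, Sprr1a, Sbsn and Tchh gave 91.6% of the 427 counts, and the other 4 genes above the floor there had 5 to 10 counts each. The ordering of the genes thus differed between the tumors, because Tgm3, Sprr3 and the Sprr2a genes, all high in the tumor labelled intracranial, had no count in the other.

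Of the 52 genes, 43 lie on chromosome 3, from Lor to Tchh, and 9 on chromosomes 2, 7, 11, 14, 16 and 17. The 43 summed to 5052 and 5.16 CPM and the 9 to 1326 and 10.8 CPM. The stretch from Lor to Tchh also holds 12 protein-coding genes outside the set, of which 7 of 8 tested were called higher in the tumor labelled intracranial. Over all genes tested, 5.41% were called so. Those 12 and the flanking genes were named after their values were seen. Crct1 had 4087 and 3 counts, 2310046K23Rik 1199 and 0, and Kprp 335 and 0, while Gm9774 had 1070 and 709 and was not called. Between the Sprr and Lce1 genes, Sprr4, Ivl and Lce6a had at most 11 counts in the tumor labelled intracranial, but 2310046K23Rik with its 1199 counts lies between Sprr4 and Ivl. Lce1m, Flg2, Flg and Hrnr, with 1 to 142 counts, lie between the Lce3 genes and Rptn. Crct1 with its 4087 counts lies in that stretch too, between Lce3f and Lce1m.

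**Figure D4:**
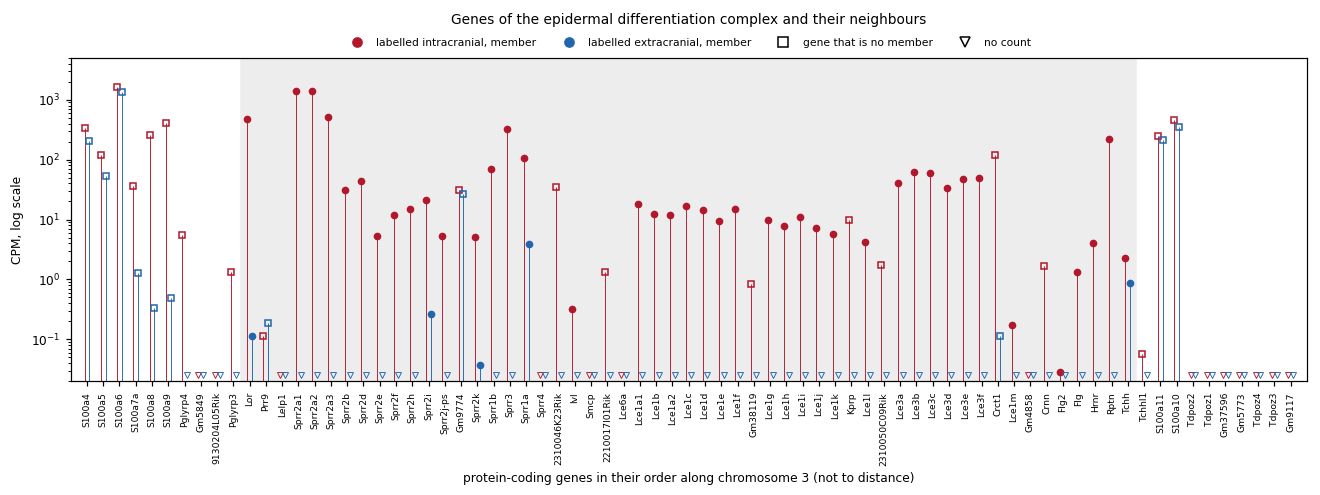
CPM (log scale) of protein-coding genes in their order along chromosome 3, from 10 genes before Lor to 10 after Tchh, with equal spacing per gene. Filled circles are genes of the set, open squares other genes and open triangles genes without a count, in the library labelled intracranial (red) and the library labelled extracranial (blue). Inside the shaded stretch from Lor to Tchh, 37 of 39 genes of the set that were tested were called, beside 5.41% of all genes tested.

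On the side of Lor, 5 of the 8 genes tested among the nearest 10 were called higher in the tumor labelled intracranial. On the side of Tchh 0 of 2 were, beside 5.41% of all genes tested. Those called on the side of Lor were S100a7a, S100a8, S100a9, Pglyrp4 and Pglyrp3, which encode antimicrobial and inflammatory proteins. S100a8 had 8970 and 9 counts and S100a9 14455 and 13, ratios of 768 (404 to 1679) and 856 (501 to 1609). These 2 genes are made by stressed keratinocytes and by neutrophils alike. The neutrophil list of 10 genes includes both. Without them, a comparison added after the data were seen, 5 of 7 neutrophil genes tested were called higher in the tumor labelled intracranial and 0 in the other, and the sum of the 8 genes was 362 and 149.5 CPM, against 7 of 9 and 1036 and 150.3 CPM with them. The genes called were Retnlg (306 and 0 counts), Il1r2 (211 and 17), Cxcr2 (113 and 4), Mmp8 (110 and 6) and Camp (58 and 2). Of the other 3, Mmp9 had 11078 and 2429 counts, Csf3r 692 and 1542, and Ly6g 4 and 1. Over all genes tested, 5.41% were called higher in the tumor labelled intracranial and 1.78% lower. The part of neutrophils in the S100a8 and S100a9 values was not tested. S100a11 and S100a10, on the side of Tchh, had 8756 and 5752, and 15954 and 9518 counts.

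Promoter sequence was not used to choose the genes. RefSeq promoters of 300 bases (250 before and 50 after the start) were matched for 47 of the 52 genes, which gave 49 promoters. The AP-1 site TGANTCA, bound by Fos and Jun proteins, was in 32.65% of them on either strand, beside 7.808% of all 32851 promoters in the table. TATAAA was in 42.86%, beside 13.62%. GGGNGTGG (Klf factors) was in 8.163% and 17.62%, CAGGAAG (Ets factors) in 12.24% and 13.27%, AACCNGTT (grainyhead-like factors) in 2.041% and 2.088%, and CCAAT in 28.57% and 37.41%, respectively. The families were unlike, since the AP-1 letters were in 9 of 14 Sprr promoters and in 0 of 13 Lce1 and 0 of 6 Lce3 promoters. The Sprr promoters without these letters were those of Sprr2a1, Sprr2a2, Sprr2a3, Sprr3 and Sprr4. All but Sprr4, which had no count, are the Sprr genes with the highest counts labelled intracranial. The Sprr2a promoters held no TATAAA either. Near-identical copies share promoter letters and are not independent.

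Below are the 150 bases before the start of 5 genes, 5′ to 3′ on the strand of the gene (RefSeq, build GRCm38.p6), with TGANTCA and TATAAA in capitals. They were chosen to set side by side high genes with both motifs, 1 low gene with both, and 1 high gene with neither.
Lor, 16703 counts labelled intracranial, chr3:92083143-92083292, minus strand: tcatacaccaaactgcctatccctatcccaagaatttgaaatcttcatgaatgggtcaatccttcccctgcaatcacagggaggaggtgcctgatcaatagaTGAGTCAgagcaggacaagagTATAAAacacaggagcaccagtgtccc
Krtdap, 11287 counts, chr7:30787755-30787904, plus strand: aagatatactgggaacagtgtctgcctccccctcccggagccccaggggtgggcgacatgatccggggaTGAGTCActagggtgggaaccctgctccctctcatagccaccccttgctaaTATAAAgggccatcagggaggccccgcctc
Rptn, 7536 counts, chr3:93393549-93393698, plus strand: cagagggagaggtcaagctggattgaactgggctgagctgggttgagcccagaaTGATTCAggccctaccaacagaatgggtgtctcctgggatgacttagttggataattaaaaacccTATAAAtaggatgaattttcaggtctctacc
Ivl, 11 counts, chr3:92573736-92573885, minus strand: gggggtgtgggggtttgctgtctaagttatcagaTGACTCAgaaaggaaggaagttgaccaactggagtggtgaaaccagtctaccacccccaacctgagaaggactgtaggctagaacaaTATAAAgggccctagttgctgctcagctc
Lce3b, 2158 counts, chr3:92932829-92932978, plus strand: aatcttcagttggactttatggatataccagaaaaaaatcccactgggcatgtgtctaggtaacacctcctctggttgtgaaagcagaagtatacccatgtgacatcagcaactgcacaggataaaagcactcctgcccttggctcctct

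Counted back from the start, the first base of the AP-1 letters was at -48 in Lor, -81 in Krtdap, -96 in Rptn and -116 in Ivl, and that of TATAAA at -27, -30, -31 and -29. Lor, with 16703 counts, and Ivl, with 11, held the same pair of motifs, and Lce3b held neither in these 150 bases. Whether the motifs bear on the levels of any gene was not tested. A match is a match of letters only.

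Other genes of the squamous program, from lists written by function, were followed in the same way. Basal keratinocyte genes were called higher in the tumor labelled intracranial in 10 of 12 tested (median log2 ratio 6.69), and suprabasal keratins in 12 of 13 (10.4). Krt13 and Krt4, the keratin pair of mouth and esophagus lining, had 366709 and 5, and 199691 and 9 counts. Krt6b, a keratin of activated and oral epithelium, had 110939 and 0 counts. Krt14 and Krt5, the basal pair, had 74653 and 2, and 25883 and 0. The exception among the suprabasal keratins, Krt10 of the epidermis, had 428 and 67 counts and an interval that reached below 4-fold (3.80 to 6.46). Of 2 further epidermal keratins, Krt1 had 457 and 0 counts, at least 117-fold, and was called, while Krt2 was not detected. Itga6 (2701 and 3116 counts) and Cldn1 (689 and 1027), which other cell types express too, were the 2 basal genes not called.

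Desmosome genes were called in 11 of 13 tested (median log2 ratio 6.05), led by Dsp, the desmoplakin gene, with 12790 and 1 counts. Genes of the cornified lipid envelope, which lays ceramides over the protein shell, were called in 12 of 18 (5.44). Asah1 and Elovl1, which serve lipid metabolism in most cells, had the highest summed levels of this list and were not called, at ratios of 0.958 and 1.06. Among proteases and inhibitors of cornification, 12 of 21 were called higher (4.63), such as Serpinb12 with 10982 and 6 counts, and 1 lower. That 1 was Cst6, the cystatin M/E gene, whose product restrains the proteases that control transglutaminases, with 1505 counts in the tumor labelled intracranial and 6823 in the other, a ratio of 0.170 (0.161 to 0.180). Other genes of the epidermal differentiation complex were called in 10 of 19 (2.61). None of these lists holds a gene of the set, and their median ratios stand beside 0.04 for all genes. Their calls stand beside 5.41% called higher and 1.78% called lower over all genes tested.

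Squamous transcription factors were divided, with 13 of 27 called higher in the tumor labelled intracranial, 0 in the other and a median log2 ratio of 1.28. The 3 with the highest summed level were not called. Klf4, a factor of barrier formation, had 9302 and 3558 counts (ratio 2.01, 1.94 to 2.09), Maf 4003 and 7709 (0.400, 0.385 to 0.416) and Junb, an AP-1 subunit, 4630 and 6042 (0.590, 0.568 to 0.613).

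**Figure D5:**
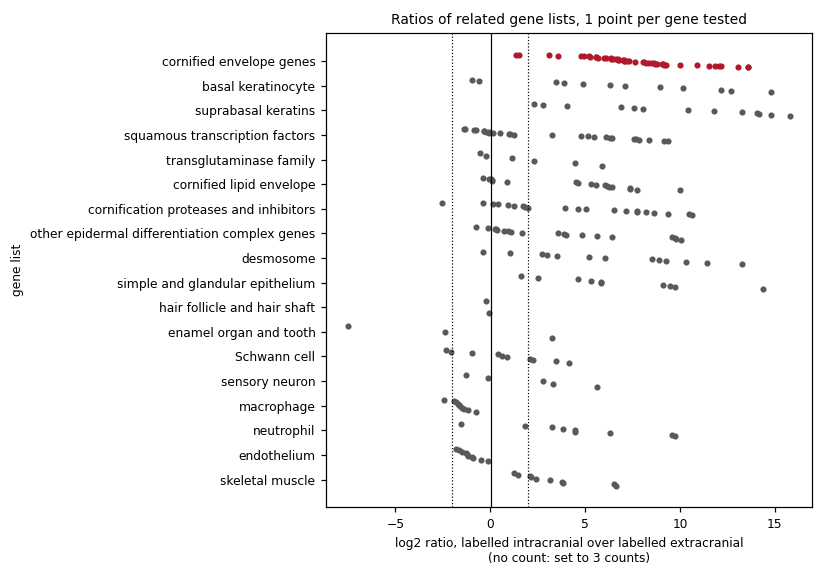
Log2 ratio of the library labelled intracranial over the library labelled extracranial for each gene tested in the set (red) and in related gene and cell type lists (grey). Genes without a count in 1 library were set to 3 counts there, the solid line is the median of all genes (0.04) and the dotted lines mark 4-fold. Suprabasal keratins and desmosome genes lie mostly far right of the dotted line, while macrophage and endothelial genes lie left of the solid line.

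Markers of other cells differed from list to list in direction and in degree. Over all genes tested, 5.41% were called higher in the tumor labelled intracranial and 1.78% lower. Of 10 genes of simple and glandular epithelium, 8 of 10 tested were called higher in the tumor labelled intracranial, with a sum of 2630.4 and 3.74 CPM. Muc5b, a secreted mucin of glands, had 83812 and 0 counts, and Agr2, which helps mucins fold, 2143 and 0. Skeletal muscle genes were called in 5 of 10, with sums of 71.2 and 15.2 CPM, and sensory neuron genes in 1 of 5 tested (Calca, 2484 and 39 counts). Schwann cell genes, which the trigeminal site could hold, were called higher in 2 of 10 and lower in 1 (Egr2, 630 and 2396 counts), with sums of 281 and 323 CPM. Enamel organ and tooth genes, of which a maxillar site could hold some, were called in 1 of 3 in each direction. The enamel genes Ambn and Mmp20 had no count in either tumor. Dmp1, of bone and dentin, had 29 and 3988 counts and was the gene called lower in the tumor labelled intracranial. The gene called higher there is not named here. Macrophage genes summed to 3134 and 9213 CPM, with 1 of 10 called lower in the tumor labelled intracranial, and endothelial genes to 228 and 418 CPM, with 0 of 10 called. What part any of these cell types had in the level of the set was not tested.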

How the data were processed

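Per the labels and methods, the authors isolated poly(A) RNA from fresh frozen tumor tissue, prepared directional libraries, sequenced single reads of 72 bases, aligned them with STAR (2.7.9a, default parameters, GRCm39) and counted reads per Ensembl gene with featureCounts. The deposited table held these raw counts, with 1 column per tumor. Whether strand was used and how reads with several alignments were counted is not given in the sources used here. Values of near-identical and overlapping genes, and of genes with repeats inside them, are therefore uncertain.

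Symbols, biotypes, exon lengths, coding sequences and gene order came from GENCODE release M21 (GRCm38), which named 52135 of 55416 IDs (94.1%). Promoters came from RefSeq. The builds differ, so no count was placed by coordinates.

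Library sizes were scaled by TMM (edgeR 4.0.16, R 4.3.3; factors 1.006 and 0.994). Ratios were given conditional exact binomial (Clopper-Pearson) 95% intervals (SciPy 1.17.1), and genes with 10 or more counts were called only if all of that interval lay outside 4-fold. The edgeR quasi-likelihood test could not be fitted without replicates, so there is no p-value, and calls compare 2 libraries, not 2 locations. The procedure was run on simulated counts that held counting error only, so that check cannot speak to the spread between animals. The genes and lists were chosen with earlier results of these data known. Any gene of the set above 3 counts could be named, and of each other list the 3 genes with the highest summed CPM and those called against its direction. One gene that this rule names is not reported here. Other genes named from the lists and the neighbours on chromosome 3 (such as Krt10, Krt1, Krt2, Itga6, Cldn1, S100a8, Cxcr2, Ly6g, Ambn and Mmp20) were chosen after their values were seen. Alternatives were DESeq2 (1.42.0) size factors, total counts, upper quartile scaling, other count minimums and folds, summed Sprr2 genes and levels without length.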

Additional observations from a re-analysis of the deposited data

Results flagged for a closer look

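The biotype rule left out 2 Sprr rows. Sprr2g, a polymorphic pseudogene in the annotation used here, had 503 counts labelled intracranial and 0 labelled extracranial, at least 129-fold, which lies within the range of the protein-coding Sprr2 genes other than Sprr2a (175 to 1520 counts). It was marked because it is a signal outside the genes analysed, above the floor of 3 counts. Sprr2c-ps, a processed pseudogene, had no count in either library.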

How the results depend on the processing

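With DESeq2 size factors, total counts or upper quartile scaling, 46 of 48 genes of the set were called each time, and all log2 ratios shifted by -0.04 to 0.02. The number called in the set was 44 to 46 under every other filter and fold, with Flg (log2 ratio at least 3.59) and Tgm1 (3.12) no longer called at 10-fold. Over all genes, 1581 were called (1190 higher labelled intracranial, 391 higher labelled extracranial), against 3434 beyond 2-fold (2147 and 1287), 2542 by the ratio alone (1755 and 787) and 762 beyond 10-fold (657 and 105). The squamous lists gave 83 calls, and 75 to 93 under the alternatives. The summed level labelled intracranial, 6378 CPM, was 6345 with DESeq2 factors, 6415 with total counts, 6294 with upper quartile scaling, 4999.8 without Sprr2a2 and 2974 without the Sprr2 genes. The median percentile labelled intracranial, 90.8 per kilobase, was 66.3 without length and 87.8 among all genes above the floor. That labelled extracranial was 2.52 instead of 11.9 among all genes above the floor, each being the shared rank of genes without a count. The median log2 ratio, 7.09, was 7.63 with a prior count of 2. No paired analysis was possible because each group is 1 library, from a different tumor, and leaving out a replicate could not be done either. In the tumor labelled extracranial, a count of 0 allows a level of up to 0.112 CPM by the floor of 3 counts and up to 0.138 CPM by the exact Clopper-Pearson 95% interval. With no replicate, no difference could be set against the spread between animals.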
